A study of Homo sapiens with 12 samples.

Results

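The glycolysis and hypoxia response genes described here are 40 named rows, of 35238 in the table, that encode the oxygen-sensing machinery built around the hypoxia-inducible factors (HIF), glucose transporters, the glycolytic enzymes, enzymes that steer pyruvate and lactate, and well-known HIF targets. They were taken by name from their known roles, and the rule used no threshold on a measured value, although earlier results of these data were known when the list was made. Messenger RNA was measured by bulk RNA sequencing in HK-2 cells, an established line derived from human kidney proximal tubule. Cells were transfected with 10 nM of a scrambled control siRNA (SCR) or of a siRNA against POLR2A (siB), and at the same time received aristolochic acid I (AAI, at 25 µM), a nephrotoxin made by plants, or its vehicle DMSO, for 24 hours. The siRNA and the treatment cross to give 4 groups of 3 libraries, named below as SCR DMSO, SCR AAI, siB DMSO and siB AAI. All 4 groups were transfected with a siRNA duplex, and no untransfected cells are among them. The labels number the replicates without saying whether they were separate cultures, so the p-values measure the spread between these libraries, which may be technical. In bulk RNA, a change in the number of cells of a kind and a change in RNA per cell cannot be told apart.

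Glycolysis splits glucose to pyruvate in the cytoplasm and yields ATP without oxygen. HIF is a pair of proteins, an oxygen-labile alpha subunit (HIF-1α from HIF1A or HIF-2α from EPAS1) and a stable beta subunit. In oxygen, prolyl hydroxylases mark the alpha subunit for destruction through the VHL ubiquitin ligase; in hypoxia it persists, enters the nucleus and binds a short core motif, ACGTG or GCGTG, near genes of glycolysis, angiogenesis and mitophagy. The normal proximal tubule burns mainly fatty acids and also makes glucose, and cultured lines derived from it rely far more on glycolysis.

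Promoters are shown for the 3 genes that rose with AAI in SCR cells (ALDOC, PFKFB4 and ADM) and for EPAS1 and LDHA, which fell with AAI in siB cells, because these genes moved in opposite directions and all hold the core motif. Each stretch runs from 250 bases before to 50 after the RefSeq start site on GRCh38.p14, 5′ to 3′ along the gene's own strand, and capitals mark ACGTG or GCGTG on either strand. They lie at chr17:28576846-28577145 (minus strand), chr3:48556754-48557053 (minus), chr11:10304823-10305122 (plus), chr2:46297157-46297456 (plus) and chr11:18394313-18394612 (plus).
ALDOC: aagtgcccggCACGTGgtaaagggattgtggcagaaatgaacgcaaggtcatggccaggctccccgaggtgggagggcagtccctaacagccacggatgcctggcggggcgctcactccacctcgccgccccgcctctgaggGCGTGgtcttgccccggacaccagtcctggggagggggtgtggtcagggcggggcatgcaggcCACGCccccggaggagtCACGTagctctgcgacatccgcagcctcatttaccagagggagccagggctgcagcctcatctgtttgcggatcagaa
PFKFB4: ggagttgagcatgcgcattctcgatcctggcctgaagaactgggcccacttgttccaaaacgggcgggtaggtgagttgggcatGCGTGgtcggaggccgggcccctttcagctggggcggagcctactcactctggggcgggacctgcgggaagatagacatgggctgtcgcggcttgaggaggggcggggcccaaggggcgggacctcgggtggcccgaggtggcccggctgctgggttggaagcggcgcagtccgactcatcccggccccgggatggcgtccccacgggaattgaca
ADM: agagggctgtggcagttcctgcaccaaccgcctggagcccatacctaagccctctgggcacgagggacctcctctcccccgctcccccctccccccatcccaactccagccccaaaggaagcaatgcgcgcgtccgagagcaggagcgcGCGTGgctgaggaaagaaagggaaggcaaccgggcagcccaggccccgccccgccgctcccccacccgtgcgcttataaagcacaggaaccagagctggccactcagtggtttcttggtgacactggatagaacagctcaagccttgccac
EPAS1: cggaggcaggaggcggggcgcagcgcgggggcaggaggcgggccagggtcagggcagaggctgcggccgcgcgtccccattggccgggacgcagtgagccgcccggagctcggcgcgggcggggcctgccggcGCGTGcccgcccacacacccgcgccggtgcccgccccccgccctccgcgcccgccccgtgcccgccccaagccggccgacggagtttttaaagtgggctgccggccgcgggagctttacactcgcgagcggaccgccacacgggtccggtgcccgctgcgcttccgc
LDHA: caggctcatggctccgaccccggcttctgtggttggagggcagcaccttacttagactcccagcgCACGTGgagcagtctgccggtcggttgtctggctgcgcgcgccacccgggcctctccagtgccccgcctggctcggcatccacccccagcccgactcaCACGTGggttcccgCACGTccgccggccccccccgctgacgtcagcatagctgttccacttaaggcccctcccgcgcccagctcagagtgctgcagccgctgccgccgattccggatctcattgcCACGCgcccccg

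Of the 40 genes, 32 had a promoter in the RefSeq table, and 24 of these (75%) held ACGTG or GCGTG on either strand, 13 of them ACGTG and 17 GCGTG. The palindrome CACGTG holds ACGTG on both strands. Either motif stood in 48.4% of all 27305 promoters and in 62.7% of the 10456 promoters of genes tested in SCR cells, so a match is common at this length. The ALDOC window held 3 ACGTG and 2 GCGTG matches, the LDHA window 5 and 1, and PFKFB4, ADM and EPAS1 held 1 GCGTG each. A match is a stretch of letters and not evidence of binding. Among genes that passed the test with AAI in siB cells, 3 of 3 with a promoter that rose and 11 of 16 that fell held a motif, against 9 of 12 that did not pass.

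The shallowest library, siB AAI replicate 1, held 15844015 reads and the deepest, SCR DMSO replicate 2, held 42805294. Levels are given as CPM, a gene's reads scaled to the total of its library, and 0 reads allow up to 0.0701 to 0.189 CPM, a limit of 3 reads that covers counting error only. All 6 epithelial markers examined exceeded a mean of 1 CPM, but 7 of 11 proximal tubule markers, among them LRP2, CUBN and HNF4A, lay below it. The siRNA target POLR2A, the largest subunit of RNA polymerase II, averaged 284 ± 24.2 CPM (SD, n = 3) in SCR DMSO and 139.7 ± 2.61 in siB DMSO. With AAI it averaged 707 ± 30.1 CPM in SCR cells and 232 ± 29.5 CPM in siB cells. SCR DMSO replicates 1 and 2 stood apart at opposite ends of the second principal component, which held 18.3% of the variance (scores of -57.8 and 62.2, with the other 10 libraries between -29.1 and 27.8). In replicate 2 HIF1A was at 179.7 CPM, against 881 and 787 in replicates 1 and 3. Replicate 2 was the highest or lowest of all 12 libraries for 16 of the 40 genes, and replicate 1 was so for 15. The median replicate SD of these genes, on the log2(CPM + 1) scale, was 0.478 in SCR DMSO against 0.370 for all genes, and 0.109 in siB DMSO against 0.149 for all genes. Tests against SCR DMSO therefore rest on a wider spread than tests within siB cells.

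**Figure D1:**
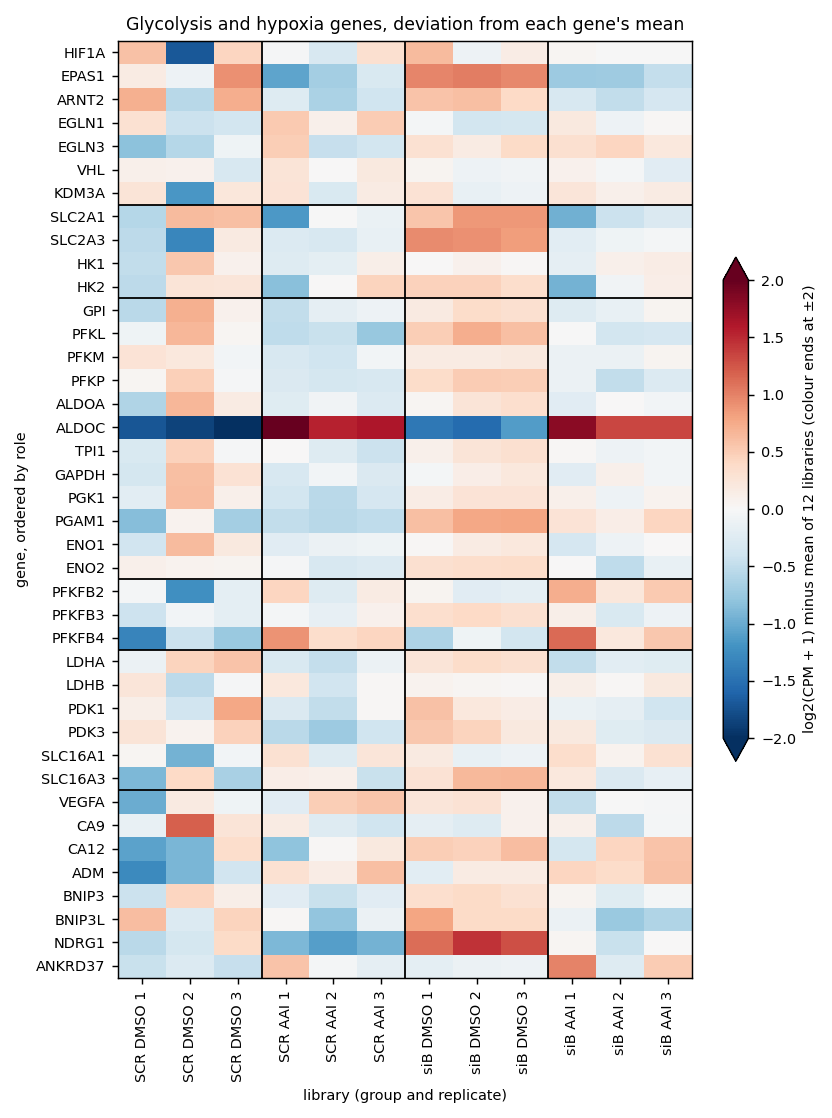
Each row is a gene, in order of role, and each column a library; colour gives log2(CPM + 1) minus the gene's mean over 12 libraries. ALDOC has the largest change with AAI, and the 3 SCR DMSO libraries differ among themselves more than those of the other groups (median replicate SD 0.478).

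The first comparison asked how AAI changed these genes in control-transfected cells. A gene passed the test at an adjusted p under 0.05 over all genes, and a fold change is on the log2(CPM + 1) scale. In SCR cells, 3 of the 39 genes tested rose with AAI (ALDOC, PFKFB4 and ADM) and none fell. With the replicate number as a block, which was treated as pairing these libraries, 3 rose and 5 fell (EPAS1, SLC2A1, PFKL, PDK3 and NDRG1). Only ALDOC was kept whichever library was left out. Without SCR DMSO replicate 2 the fit without the block called 5 lower (EPAS1, ARNT2, NDRG1, PDK3 and BNIP3L). Calls over all genes, in either direction, went from 1755 in the main fit to 2997 with the block and 3156 without that library. In the main fit, 8.98% of all 14228 genes tested rose and 3.36% fell. With a change of at least 2-fold as well, these shares were 7.73% and 2.73%, and the same 3 of the 39 rose. The median log2 change of the 39 was -0.16, against 0.18 for all genes. By limma, 3 of the 39 had a higher and 6 a lower estimate at an unadjusted p under 0.05, beside 3841 of all 14228 genes in either direction. Voom on the recovered reads also called 0 that fell. CA9, a carbonic anhydrase widely used as a hypoxia marker, stayed between 0.0923 and 2.62 CPM in all 12 libraries and was too low to test.

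In siB cells 4 of the 39 rose with AAI (ALDOC, PFKFB4, PFKFB2 and ADM) and 20 fell, among them EPAS1, NDRG1, SLC2A1, SLC2A3 and BNIP3L by at least 2-fold. Over all 14928 genes, 30.4% rose and 21.8% fell. With the 2-fold limit 1 rose and 5 fell, beside 13.9% and 5.79% of all genes. The median log2 change was -0.31, against 0.10 for all genes. Of the calls, 3 of the 4 that rose and 14 of the 20 that fell were kept whichever of the 6 libraries was left out. However, siB DMSO replicates 2 and 3 were far more alike than any other pair within a group. Their read counts differed by a chi-square of 4.38 per degree of freedom, against 28.7 to 391 for the other pairs. The labels do not say whether these were separate cultures, so the spread in siB DMSO may be too narrow. Summed levels of cell type markers also differed between siB DMSO and siB AAI, except that the leukocyte sums overlapped. The 6 epithelial markers summed to 1518 to 1699 CPM in siB DMSO and 1141 to 1192 CPM in siB AAI. In SCR cells they summed to 1389 to 2103 CPM in DMSO and 1208 to 1656 CPM in AAI. The 11 proximal tubule markers summed to 184 to 203 CPM in siB DMSO and 150 to 155 CPM in siB AAI. In SCR cells they summed to 130 to 158 CPM in DMSO and 118 to 154 CPM in AAI. GGT1 alone made up most of these sums, with a mean of 134 CPM over all libraries. The summed level of 5 markers of other nephron segments ran from 0.0451 to 0.279 CPM in siB DMSO and from 8.71 to 9.32 CPM in siB AAI, with UMOD, SLC12A1, AQP2 and NPHS1 below a mean of 1 CPM. The 5 endothelial markers summed to 1.39 to 1.94 CPM in siB DMSO and 4.34 to 6.06 CPM in siB AAI, with CDH5, VWF, KDR and TEK below 1 CPM. In SCR cells the nephron sum was 0.257 to 0.514 CPM in DMSO and 0.861 to 2.10 CPM in AAI. The 5 fibroblast markers summed to 63.8 to 68.1 CPM in siB DMSO and 47.3 to 54.7 CPM in siB AAI, and in SCR cells to 64.7 to 85.0 CPM in DMSO and 41.5 to 49.3 CPM in AAI. In SCR cells the endothelial sum was 1.21 to 2.59 CPM in DMSO and 1.55 to 1.72 CPM in AAI. The 5 leukocyte markers summed to 68.1 to 85.4 CPM in siB DMSO and 69.8 to 77.5 CPM in siB AAI, and in SCR cells to 60.4 to 98.4 CPM and 75.6 to 85.6 CPM, with TYROBP and CD3E at 0 in all libraries. CD68 alone made up most of the leukocyte sums, with a mean of 75.5 CPM over all libraries. The part of these marker differences in the results was not tested.

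**Figure D2:**
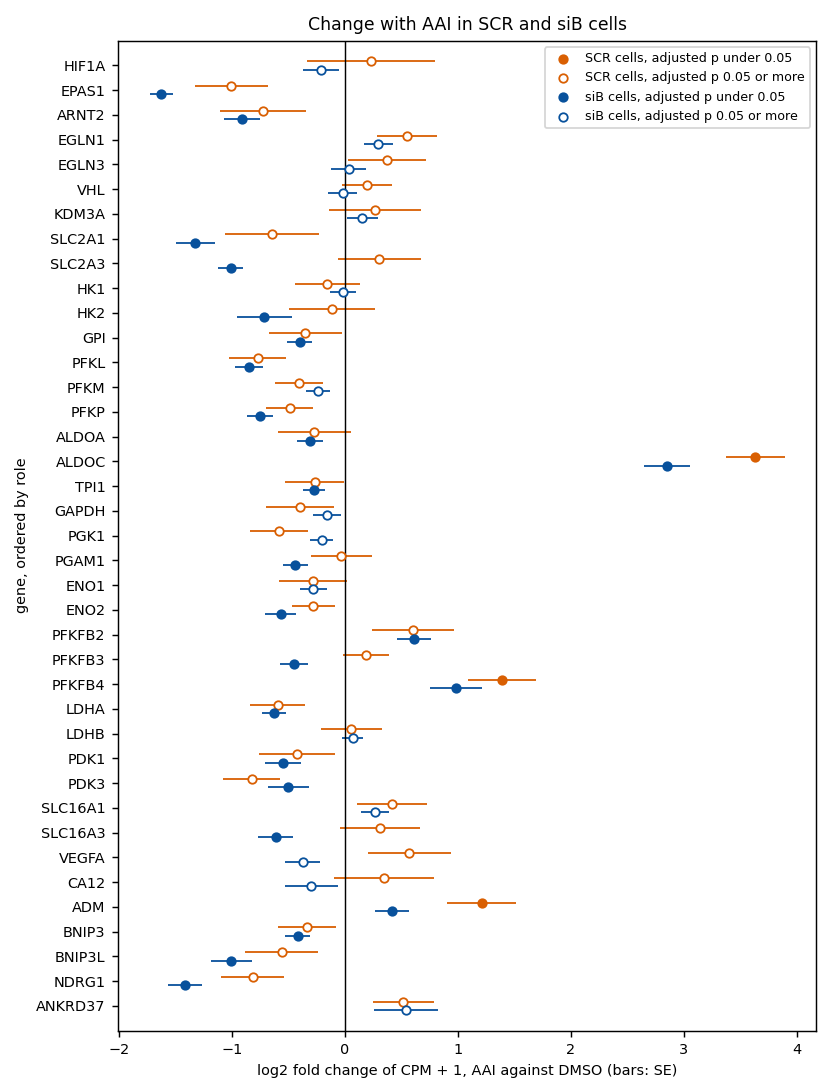
Points give the log2 fold change of CPM + 1 with AAI, with its SE, for the 39 tested genes in SCR cells (orange) and siB cells (blue); filled points passed at adjusted p under 0.05. The filled orange points are ALDOC, PFKFB4 and ADM alone, and 20 filled blue points lie left of 0.

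Among the glycolytic enzymes, ALDOC stood apart from the rest. It encodes aldolase C, the isoform known best from brain, which splits fructose-1,6-bisphosphate. In SCR DMSO its level was 1.06, 0.864 and 0.588 CPM in replicates 1, 2 and 3, against 27.7, 18.6 and 19.7 CPM with AAI. In siB DMSO it was 1.496, 1.31 and 2.12 CPM, against 22.5, 16.0 and 16.0 CPM with AAI. Every AAI library lay above every DMSO library in both backgrounds. ALDOC rose 12.4-fold in SCR cells (log2 fold change 3.63, SE 0.26, adjusted p = 0.000142) and 7.22-fold in siB cells (log2 fold change 2.85, SE 0.20, adjusted p = 6.88e-06), and both calls held in every alternative fit. These folds are of CPM + 1, which understates the change of a gene near 1 CPM. The other aldolase, ALDOA, was far more abundant, at 1094 ± 86.1 CPM in SCR AAI, so aldolase C mRNA remained a small share of aldolase mRNA.

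The gene just upstream of ALDOC on the same strand, SPAG5, ends 616 bp before it (hg38, GENCODE 44), and whether reads ran on from it was not tested. SPAG5 was at 120.1, 73.9 and 108 CPM in SCR DMSO and 195, 108 and 159.9 CPM in SCR AAI, a difference that did not pass (adjusted p = 0.237). In siB cells it rose from 104 ± 3.43 to 145 ± 17.1 CPM (adjusted p = 0.00631). The ratio of mean ALDOC to mean SPAG5 CPM went from 0.00832 in SCR DMSO to 0.143 in SCR AAI, and from 0.0158 in siB DMSO to 0.125 in siB AAI.

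The other 11 glycolytic enzymes all had lower estimates with AAI in SCR cells, where 61.8% of all genes had a higher one, and none of these enzymes passed. Without SCR DMSO replicate 2, the estimates of PGAM1 and ALDOA were above 0 (log2 fold change 0.25 and 0.02), and the others stayed below 0. PFKL, the liver-type phosphofructokinase, was at 137, 231 and 149 CPM in SCR DMSO and 102, 107 and 85.8 CPM in SCR AAI. The groups did not overlap, but the difference missed the threshold (log2 fold change -0.77, SE 0.25, adjusted p = 0.0910; 0.0330 with the replicate number as a block). In siB cells 7 of the 12 enzymes fell: PFKL, PFKP, PGAM1, ENO2, GPI, ALDOA and TPI1. PFKL fell from 205, 242 and 222 to 144, 113 and 115 CPM (log2 fold change -0.85, SE 0.12, adjusted p = 0.000440), with no overlap. PFKP, the platelet-type phosphofructokinase, also fell (log2 fold change -0.75, SE 0.11, adjusted p = 0.000574).

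For PGAM1 the values were 1306, 1478 and 1498 CPM in siB DMSO and 1047, 951 and 1161 CPM in siB AAI (log2 fold change -0.44, SE 0.11, adjusted p = 0.00818), without overlap. ENO2, the neuronal enolase, fell, and the more abundant ENO1 did not pass (log2 fold change -0.57, SE 0.13, adjusted p = 0.00626 for ENO2, and log2 fold change -0.28, SE 0.12, adjusted p = 0.0789 for ENO1). The remaining falls, of GPI, ALDOA and TPI1, lay between -0.40 and -0.27 on the log2 scale.

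GAPDH, PGK1, ENO1 and PFKM did not pass in either background. GAPDH, the most abundant of the 40 and a common reference gene, was at 3714, 7203 and 5833 CPM in SCR DMSO and 3823, 4589 and 3899.7 CPM in SCR AAI. The siB libraries held 4635, 5222 and 5502 CPM in DMSO and 4059, 5129.6 and 4576 CPM in AAI. Within SCR DMSO alone it differed more than the group means did between DMSO and AAI. Smaller falls in siB cells depended on single libraries. Without siB DMSO replicate 2 or 3, the adjusted p rose to 0.0636 and 0.0542 for GPI, to 0.150 and 0.182 for ALDOA and to 0.148 and 0.172 for TPI1. TPI1 also missed the threshold without siB AAI replicate 2 or 3 (0.0860 and 0.101), and ALDOA without siB AAI replicate 1 or 3 (0.113 and 0.0909).

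Summed over the 12 enzymes, glycolytic mRNA was at 9902, 19150.2 and 14336 CPM in SCR DMSO and 10699, 11593 and 10839.6 CPM in SCR AAI. The siB sums were 13705, 15374 and 15892 CPM in DMSO and 11520.2, 12869.8 and 12917 CPM in AAI. The 3 SCR DMSO libraries spanned the range of the other 9, whereas the siB DMSO libraries all lay above the siB AAI libraries. As a mean share of reads the sum was 1.45% in SCR DMSO, 1.10% in SCR AAI, 1.499% in siB DMSO and 1.24% in siB AAI.

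**Figure D3:**
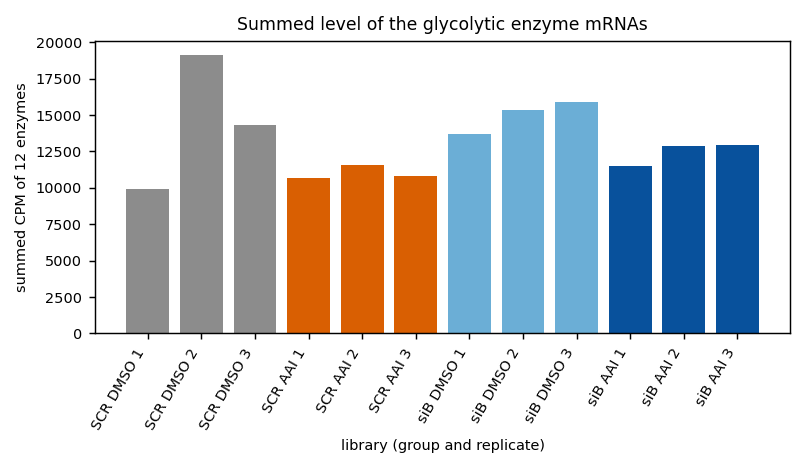
Bars give the summed CPM of the 12 glycolytic enzymes in each library, from 0. SCR DMSO runs from 9902 to 19150.2 CPM, and the siB AAI bars all lie below the siB DMSO bars.

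The fructose-2,6-bisphosphate enzymes set the level of the strongest activator of phosphofructokinase. PFKFB4 was at 14.5, 27.8 and 22.2 CPM in SCR DMSO and 71.1, 48.4 and 51.1 CPM in SCR AAI. With siB the levels were 24.3, 35.3 and 28.8 CPM in DMSO and 84.1, 43.6 and 54.9 CPM in AAI. Groups did not overlap in either background, and PFKFB4 rose 2.62-fold in SCR cells (log2 fold change 1.39, SE 0.30, adjusted p = 0.0219) and 1.98-fold in siB cells (log2 fold change 0.98, SE 0.23, adjusted p = 0.00567). The call in SCR cells was lost without SCR DMSO replicate 3 (adjusted p = 0.0712) or without SCR AAI replicate 1, 2 or 3 (0.1001, 0.0671 and 0.0811), while the call in siB cells held in every alternative fit and lay just short of the 2-fold limit. UCN2, which overlaps PFKFB4 on the same strand, moved the same way: from 4.22 ± 0.212 to 8.18 ± 0.384 CPM in SCR cells (adjusted p = 0.0495) and from 3.59 ± 0.735 to 13.5 ± 1.58 CPM in siB cells (8.20e-05). How the authors' counting assigned reads shared by the pair is not given in the sources used here, so the values of PFKFB4 are uncertain to that extent. COL7A1, upstream of PFKFB4 on the same strand, ends 2057 bp before it, and whether reads ran on from it was not tested. In SCR cells COL7A1 averaged 229 ± 90.7 CPM in DMSO and 141 ± 27.6 CPM in AAI. In siB cells it averaged 169 ± 6.90 and 174 ± 74.3 CPM, and neither difference passed (adjusted p = 0.294 and 0.905).

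PFKFB3, the isoform with the highest kinase activity, went the other way in siB cells. Its level was 149.6, 156 and 148 CPM in siB DMSO and 128, 95.5 and 110.0 CPM in siB AAI, without overlap, and it fell (log2 fold change -0.45, SE 0.12, adjusted p = 0.0115). In SCR cells it was at 88.2, 114 and 103 CPM in DMSO and 115, 106 and 125 CPM in AAI, with overlap and no call (adjusted p = 0.592). PFKFB2, the heart-type isoform, rose in siB cells from 40.1 ± 4.46 to 62.2 ± 10.7 CPM (log2 fold change 0.61, SE 0.15, adjusted p = 0.00768). In SCR cells its estimate was of the same size but did not pass (log2 fold change 0.60, SE 0.36, adjusted p = 0.329).

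**Figure D4:**
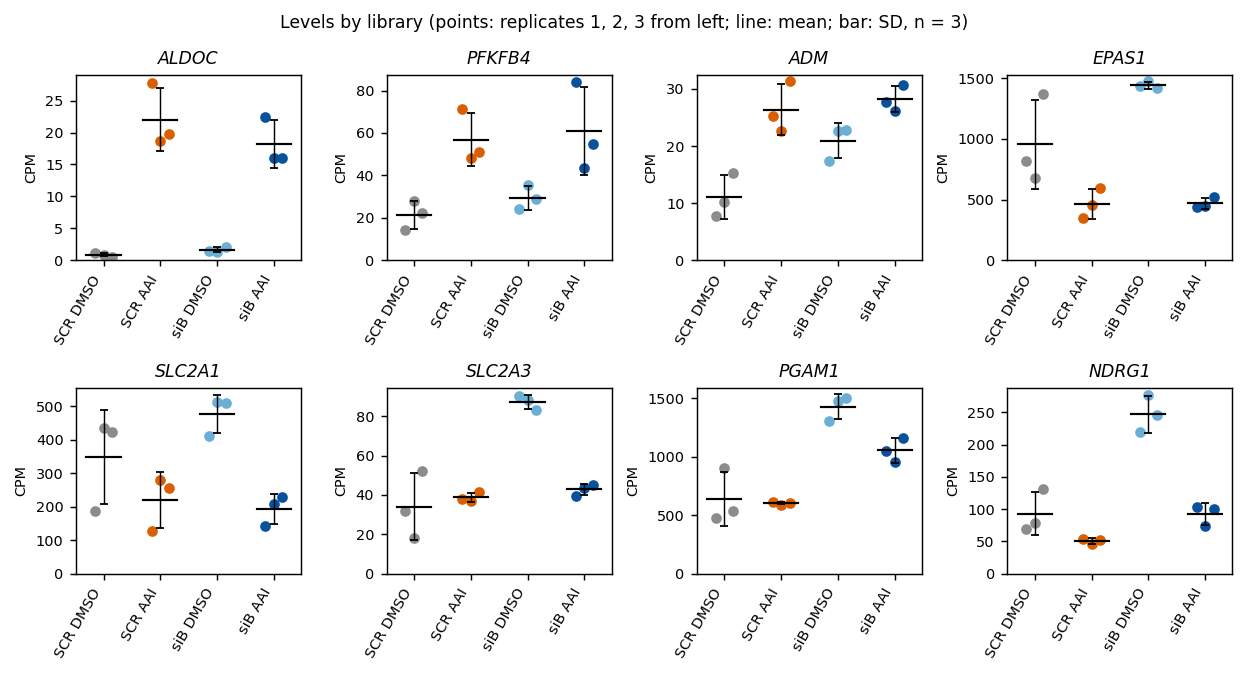
Each panel gives one gene's CPM in the 4 groups, from 0, with points for replicates 1 to 3, a line for the mean and a bar for the SD (n = 3). ALDOC, PFKFB4 and ADM lie higher with AAI than with DMSO in both backgrounds, EPAS1, SLC2A1, SLC2A3 and NDRG1 lie lower in siB AAI than in siB DMSO, and PGAM1 is higher in both siB groups than in SCR AAI.

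Glucose entry and trapping is the work of the transporters SLC2A1 (GLUT1) and SLC2A3 (GLUT3) and the hexokinases. SLC2A1 was at 411, 511 and 509 CPM in siB DMSO and 143, 207 and 229 CPM in siB AAI, and it fell 2.50-fold (log2 fold change -1.32, SE 0.17, adjusted p = 0.000226). In SCR cells it was at 187, 436 and 422 CPM in DMSO and 126, 279 and 256 CPM in AAI. Replicate 1 was the lowest in both SCR groups, the groups overlapped, and the difference did not pass (adjusted p = 0.368), although with the replicate block it did (0.0422). SLC2A3 was at 90.1, 88.3 and 83.2 CPM in siB DMSO and 39.7, 43.6 and 45.0 CPM in siB AAI, and fell 2.02-fold (log2 fold change -1.01, SE 0.11, adjusted p = 7.17e-05). In SCR cells it was at 31.9, 18.1 and 52.3 CPM in DMSO and 38.2, 36.9 and 41.5 CPM in AAI, with overlap (adjusted p = 0.630).

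HK2, the inducible hexokinase, fell in siB cells from 49.9, 49.8 and 46.0 to 18.2, 34.2 and 39.7 CPM (log2 fold change -0.71, SE 0.24, adjusted p = 0.0323). The siB AAI libraries were all below the siB DMSO libraries, yet the call was lost without siB DMSO replicate 1, 2 or 3 (adjusted p = 0.0578, 0.0694 and 0.0618). It was also lost with the filter dropped and with all 4 groups in the fit (adjusted p = 0.140 for the latter). In SCR cells HK2 was at 24.6, 43.0 and 42.9 CPM in DMSO and 19.7, 36.3 and 49.3 CPM in AAI and did not pass (adjusted p = 0.874). HK1, the constitutive hexokinase, did not pass in either background (adjusted p = 0.763 and 0.905).

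Of the 6 genes that steer pyruvate and lactate, none passed in SCR cells and 4 fell in siB cells. LDHA, which favours lactate formation, was at 636, 687 and 666 CPM in siB DMSO and 380.0, 459 and 451 CPM in siB AAI (log2 fold change -0.63, SE 0.10, adjusted p = 0.000911). In SCR cells it was at 493, 723 and 793 CPM in DMSO and 432, 385 and 491 CPM in AAI, with no overlap, and did not pass (log2 fold change -0.60, SE 0.24, adjusted p = 0.163). LDHB, the partner subunit found in oxidative tissue, did not pass in either background and its estimates were near 0 (0.06, 95% interval -0.57 to 0.68, and 0.07, interval -0.14 to 0.28, log2 scale).

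SLC16A3 (MCT4), the lactate exporter of glycolytic cells, fell in siB cells from 472 ± 65.8 to 309.9 ± 59.0 CPM (log2 fold change -0.61, SE 0.15, adjusted p = 0.00804). PDK1 and PDK3, kinases that switch off pyruvate dehydrogenase, also fell there (log2 fold change -0.55, SE 0.16, adjusted p = 0.0160 for PDK1, and log2 fold change -0.50, SE 0.18, adjusted p = 0.0400 for PDK3). The PDK1 call was lost without siB AAI replicate 3 (adjusted p = 0.0680), and the PDK3 call without siB DMSO replicate 1 or 2 or siB AAI replicate 2 or 3 (0.0899, 0.108, 0.119 and 0.138). Both calls were lost with all 4 groups in the fit (0.137 and 0.0722), and the PDK3 call with the filter dropped. In SCR cells PDK3 was at 16.2, 14.1 and 18.8 CPM in DMSO and 8.89, 7.61 and 9.90 CPM in AAI, without overlap. Its difference missed the threshold (log2 fold change -0.82, SE 0.25, adjusted p = 0.0738) and passed with the replicate block (0.0415). SLC16A1 (MCT1), the transporter of lactate and pyruvate, did not pass in SCR cells or in siB cells (adjusted p = 0.434 and 0.0972).

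Among the genes of oxygen sensing, EPAS1, which encodes HIF-2α, had the largest fall. It was at 1432, 1473 and 1417 CPM in siB DMSO and 438, 446 and 520.5 CPM in siB AAI, and fell 3.08-fold (log2 fold change -1.62, SE 0.10, adjusted p = 3.61e-06). In SCR cells it was at 818, 679 and 1369.7 CPM in DMSO and 349, 455 and 591 CPM in AAI. All SCR AAI libraries lay below all SCR DMSO libraries, but the test did not pass (log2 fold change -1.004, SE 0.32, adjusted p = 0.0849), and with the replicate block it did (0.0210). Without SCR DMSO replicate 2 the adjusted p was 0.0110.

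HIF1A mRNA did not pass in SCR or siB cells. With AAI its level was 579, 470.2 and 736 CPM in SCR cells and 605, 583 and 586 CPM in siB cells, against 906, 547 and 648 CPM in siB DMSO. HIF-1α is controlled mainly as a protein, which these data do not measure. ARNT2, a beta subunit of HIF that is best known from neurons, was a low transcript and fell in siB cells from 8.81, 9.11 and 7.75 to 4.29, 3.74 and 4.23 CPM (log2 fold change -0.91, SE 0.16, adjusted p = 0.00125). EGLN1, EGLN3, VHL and KDM3A, the hydroxylases, the ligase component and a histone demethylase induced in hypoxia, did not pass in either background, and their log2 changes lay between -0.02 and 0.55.

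The remaining hypoxia targets split in direction. ADM, which encodes the vasodilator peptide adrenomedullin, was at 7.76, 10.3 and 15.3 CPM in SCR DMSO and 25.2, 22.6 and 31.3 CPM in SCR AAI, and rose 2.32-fold (log2 fold change 1.21, SE 0.30, adjusted p = 0.0389). In siB cells it rose from 17.4, 22.6 and 22.9 to 27.6, 26.2 and 30.8 CPM (log2 fold change 0.42, SE 0.15, adjusted p = 0.0410), and the AAI effects in the backgrounds were not shown to differ (interaction -0.79, adjusted p = 0.313). The groups did not overlap in either background. The SCR call was lost without SCR DMSO replicate 1 (adjusted p = 0.0765), without SCR AAI replicate 1, 2 or 3 (0.124, 0.102 and 0.179) and with median-ratio scaling (0.0627). It was also lost with the filter dropped or set at 5 CPM on average. The siB call was lost without any of its 6 libraries in turn (0.0592 to 0.138). Median-ratio scaling (0.0965), all 4 groups in the fit (0.190) and the dropped filter lost it as well.

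NDRG1, a stress-response gene induced by hypoxia, was at 219, 277 and 247 CPM in siB DMSO and 104, 73.6 and 101 CPM in siB AAI, and fell 2.67-fold (log2 fold change -1.42, SE 0.15, adjusted p = 6.61e-05). In SCR cells it was at 68.8, 79.0 and 132 CPM in DMSO and 53.8, 46.1 and 51.7 CPM in AAI, without overlap, and did not pass (log2 fold change -0.82, SE 0.28, adjusted p = 0.103; 0.0430 with the replicate block). BNIP3L and BNIP3, receptors for the removal of mitochondria by autophagy, fell in siB cells (log2 fold change -1.01, SE 0.18, adjusted p = 0.00149 for BNIP3L, and log2 fold change -0.42, SE 0.11, adjusted p = 0.00887 for BNIP3). VEGFA, the main angiogenic factor, was at 21.2, 49.3 and 40.8 CPM in SCR DMSO and 36.9, 61.0 and 63.7 CPM in SCR AAI, and in siB cells at 51.1, 53.0 and 45.9 CPM in DMSO and 30.5, 43.1 and 42.5 CPM in AAI. It did not pass in SCR cells or siB cells (adjusted p = 0.363 and 0.0639). CA12, a carbonic anhydrase of the cell surface, and ANKRD37 did not pass in either background (log2 fold change 0.34 in SCR cells and -0.30 in siB cells for CA12, and 0.52 and 0.54 for ANKRD37).

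The second question was how knockdown of POLR2A changed these genes within each treatment. In AAI, 2 of 39 were higher in siB than in SCR cells (PGAM1 and NDRG1) and 0 were lower, beside 5.49% and 3.79% of all 14946 genes. With the 2-fold limit there were 0 in either direction, beside 3.04% and 0.629%. At an unadjusted p under 0.05 limma gave 3 higher and 0 lower of the 39, beside 3814 of all 14946 genes in either direction. Voom called 2 and 0, and the median log2 difference was 0.10 against 0.00 for all genes. PGAM1, phosphoglycerate mutase of glycolysis, was at 613, 591 and 606 CPM in SCR AAI and 1047, 951 and 1161 CPM in siB AAI (log2 difference 0.80, SE 0.15, adjusted p = 0.00926). NDRG1 was at 53.8, 46.1 and 51.7 CPM in SCR AAI and 104, 73.6 and 101 CPM in siB AAI (log2 difference 0.85, SE 0.17, adjusted p = 0.0121). Neither gene's groups overlapped.

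Both calls were lost without SCR AAI replicate 3 (adjusted p = 0.0532 for PGAM1 and 0.0639 for NDRG1) or without siB AAI replicate 3 (0.0558 and 0.0602). In this comparison the replicate numbers were treated as pairing the libraries, from correlations in these same data. With the block 5 genes were higher (PGAM1, NDRG1, PGK1, PDK3 and PFKFB2) and VEGFA was lower (adjusted p = 6.22e-07, 4.55e-07, 0.00985, 0.0391, 0.0462 and 0.0171). Of all 14946 genes, 4325 passed in either direction with the block, against 1387 without it. EPAS1 did not pass between the AAI groups (0.04 on the log2 scale, 95% interval -0.38 to 0.46), nor did LDHA (-0.02, interval -0.37 to 0.33). PGAM1 has 13 named pseudogenes in the annotation, and the 12 of these in the table held 0.713 CPM in sum on average. Reads from such near-identical copies may be split between them, which leaves PGAM1, GAPDH (65 named pseudogenes) and BNIP3 (44) uncertain to that extent.

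In DMSO no gene at all passed between siB and SCR cells (0% of 13606 in each direction, with or without the 2-fold limit). By limma 644 of all genes and 10 of the 39 had an unadjusted p under 0.05, and voom also called 0. Of the 39, 36 had a higher estimate in siB cells, beside 60.4% of all genes, and 32 did with median-ratio scaling. Their median log2 difference was 0.30 against 0.06 for all genes. Among the 40, 12 had all siB libraries above all SCR libraries and 0 had them all below, beside 8.28% and 3.64% of all genes. PGAM1 was at 479.7, 905 and 539 CPM in SCR DMSO and 1306, 1478 and 1498 CPM in siB DMSO (log2 difference 1.21, SE 0.25, adjusted p = 0.935). NDRG1 and SLC2A3 likewise had every siB library above every SCR library, with log2 differences of 1.45 and 1.45, and neither passed (adjusted p = 0.754 and 0.983). These estimates share the SCR DMSO libraries with the test of AAI in SCR cells and the siB DMSO libraries with the test of AAI in siB cells, and so are not independent of either. POLR2A itself did not pass here (log2 difference -1.01, adjusted p = 0.505), although its groups did not overlap. Without SCR DMSO replicate 1, 32 of 39 were higher, and without replicate 2, 30 of 39.

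The third question was whether AAI acted differently in siB and SCR cells, tested as an interaction over all 4 groups. None of the 39 passed, beside 1.46% of all 15325 genes with a higher and 0.157% with a lower AAI effect in siB cells. By limma 6 of the 39 had an unadjusted p under 0.05, beside 2032 of all 15325 genes, and voom called 0 of the 39. Of their estimates, 30 of 39 were lower in siB cells (median -0.22 on the log2 scale, against -0.06 for all genes). Of all genes, 43.8% had a higher estimate. The lowest adjusted p belonged to SLC2A3 (interaction -1.32, SE 0.39, adjusted p = 0.140). Without SCR DMSO replicate 2, SLC2A3, SLC16A3 and PGAM1 passed (adjusted p = 0.0409, 0.0214 and 0.0437), and without SCR DMSO replicate 3, SLC2A3 did (0.0338). Over all genes, 1010 and 115 passed in these fits, against 247 with all libraries. The larger number of falls in siB cells is therefore not shown to be a difference between the backgrounds. With median-ratio scaling 23 of 39 estimates were lower.

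Ratios within pairs of related genes do not depend on library scaling and are given as descriptions without a test. The log2 ratio of PFKFB4 to PFKFB3 was -2.61, -2.03 and -2.22 in SCR DMSO and -0.70, -1.13 and -1.29 in SCR AAI, and in siB cells -2.62, -2.14 and -2.36 in DMSO and -0.61, -1.13 and -1.001 in AAI. Every AAI library lay above every DMSO library, in both backgrounds. For LDHA to LDHB the ratio was -0.36, -0.21 and -0.26 in siB DMSO and -1.15, -0.79 and -0.99 in siB AAI, without overlap, whereas in SCR cells it was -0.90, 0.42 and 0.05 in DMSO and -1.06, -0.64 and -0.69 in AAI, with overlap. For EPAS1 to HIF1A it was 0.66, 1.43 and 1.13 in siB DMSO and -0.47, -0.39 and -0.17 in siB AAI, so EPAS1 had more reads than HIF1A in every siB DMSO library and fewer in every siB AAI library. In SCR AAI the ratio was -0.73, -0.05 and -0.32, also below 0 in every library, and in SCR DMSO it ran from -0.11 to 1.92.

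**Figure D5:**
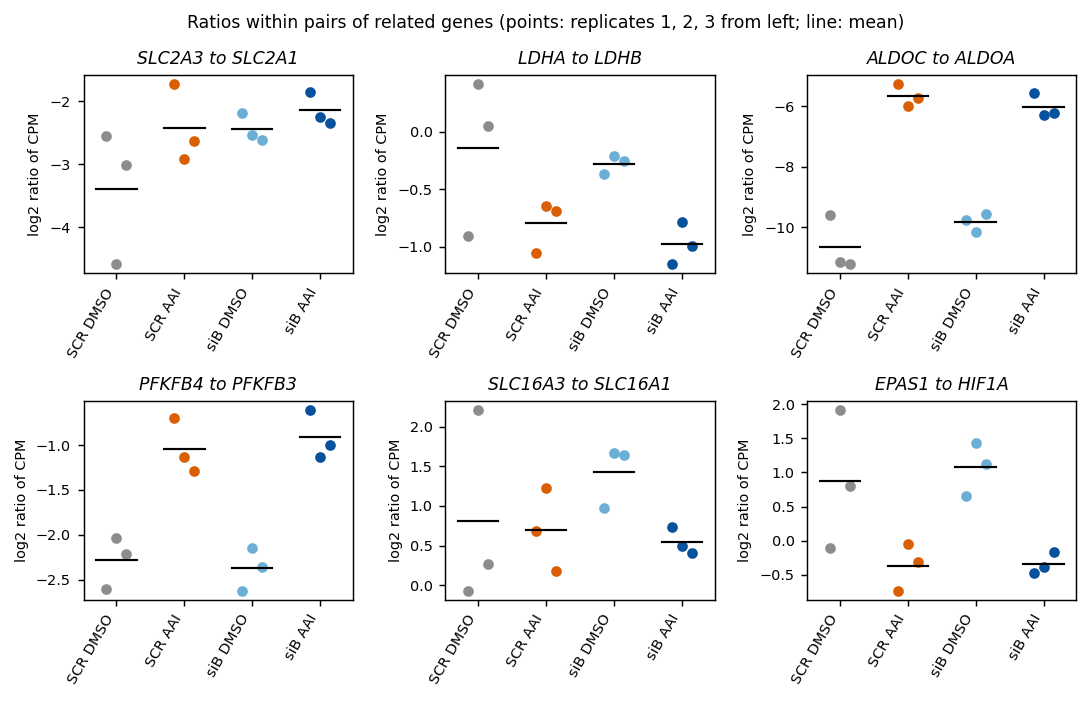
Each panel gives the log2 ratio of CPM of a pair of related genes per library, with points for replicates 1 to 3 and a line for the mean; the axes do not start at 0. PFKFB4 to PFKFB3 and ALDOC to ALDOA separate AAI from DMSO in both backgrounds, and SCR DMSO has the widest scatter for LDHA to LDHB, SLC16A3 to SLC16A1 and EPAS1 to HIF1A.

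Other genes of the pathway were counted from lists. Of 36 further glycolysis genes, 26 were tested in SCR cells and 1 rose with AAI, HK3, a hexokinase of blood cells. It went from 0.0462, 0 and 0 CPM in SCR DMSO, all below the limit of 3 reads, to 3.53, 3.58 and 2.70 CPM in SCR AAI. In siB cells 5 of 27 rose and 13 fell. Of 11 further HIF pathway parts none passed in SCR cells, and 3 rose and 3 fell in siB cells. The shares of all genes were 8.98% higher and 3.36% lower in SCR cells and 30.4% and 21.8% in siB cells. CITED2, which competes with HIF for its coactivators, and EGLN2, a prolyl hydroxylase, were lower in siB AAI than in SCR AAI (log2 difference -0.92, adjusted p = 0.0168, and -0.96, adjusted p = 0.00662), both chosen after their values were seen.

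Of 32 further hypoxia targets, 27 were tested in SCR cells, where 2 rose and 3 fell, and 29 in siB cells, where 6 rose and 9 fell, beside the same shares of all genes. ANGPTL4, an inhibitor of lipoprotein lipase, was at 0.693, 17.1 and 11.9 CPM in SCR DMSO and 44.1, 162 and 108 CPM in SCR AAI (log2 fold change 3.66, adjusted p = 0.0320). Replicate 1 was the lowest library of both groups. IGFBP3, a carrier of insulin-like growth factors, KDM4C, a histone demethylase, and LOXL2, a matrix crosslinker, fell in SCR cells (log2 fold change -1.56, -1.18 and -1.15). Known targets of hypoxia thus passed in both directions.

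Calls were also counted by the length of the gene on the genome. With AAI in siB cells, 2 of 14 tested genes under 30 kb rose and 7 fell, 2 of 18 from 30 to 100 kb rose and 10 fell, and 0 of 7 over 100 kb rose and 3 fell. In SCR cells 2, 1 and 0 rose in these classes and none fell. The shares over all genes of any length were those given above (30.4% higher and 21.8% lower in siB cells), and no share by length was computed. Lengths run between the outermost GENCODE bounds, which put PGK1 at 219 kb and EGLN3 at 539 kb. From the RefSeq start site to the same gene end, both would be under 30 kb. Neither gene passed in either background.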

How the data were processed

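The 12 libraries were poly(A) RNA sequencing of HK-2 cells. The authors, by their methods text, mapped read pairs to hg38 and took gene-level counts from UCSC gene models, using the BioJupies platform. The aligner and the strand setting are not given in the sources used here. The authors deposited log10 of CPM plus 1, without a filter. CPM was recovered as 10 to the value, minus 1. All non-zero values were whole multiples of 1 read (tolerance 0.05), which gave the depth. Groups and replicate numbers came from the sample titles, since a treatment label read DMSO throughout.

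Tests used limma 3.58.1 in R 4.3.3 (lmFit, eBayes with trend) on log2(CPM + 1), each pair of groups fitted alone, on genes at 1 CPM or more in at least 3 libraries, with Benjamini-Hochberg adjustment over all genes tested. The interaction used all 4 groups. The scripts were tested on simulated data. Count models were not the main test because the values are on a log scale. Intervals (95%) use limma's moderated degrees of freedom. Deviations of same-numbered libraries correlated at 0.338 to 0.473 between SCR AAI and SCR DMSO and at 0.292 to 0.614 between siB AAI and SCR AAI. In siB cells the lowest was 0.026, and between DMSO groups -0.193. Numbers were therefore treated as pairing SCR AAI with SCR DMSO and siB AAI with SCR AAI, although no label states a pairing. The main tests did not use this pairing, and fits with the replicate block are given beside them. Spans and neighbours came from GENCODE 44 (hg38), promoters from RefSeq (GRCh38.p14).

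Values with statistics are given for those of the 40 genes that passed or stood at the ends of a role group, and for HIF1A, EPAS1, SLC2A1, HK2, PFKFB3, LDHA, PDK1, VEGFA and CA9, with up to 4 genes per further list by size of change. The genes and lists were chosen with earlier results of these data known. Of the cell type markers, 2 are not reported here. The fits were repeated with median-ratio scaling, with a replicate block, without the trend, by voom, with all 4 groups, with a 2-fold limit, with 0.1 as pseudocount, with the filter dropped or set at 5 CPM on average, with CPM recomputed without AC010970.2, and with each library left out.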

Additional observations from a re-analysis of the deposited data

How the results depend on the processing

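Over 3116 single-gene alternatives, 3016 kept their side of the threshold, 60 lost a call, 40 gained one and 0 called values changed sign. Of the 2681 alternatives of values that did not pass as reported, 153 changed sign. In SCR cells the count that rose was 3, and 1 to 3 with a library left out (1 without SCR AAI replicate 1, 2 or 3). ADM also lost its call there with median-ratio size factors and with the filter dropped or set at 5 CPM on average. The count that fell, 0, became 2 with median-ratio size factors, 5 with the replicate block, 1 without the trend, 7 with all 4 groups in the fit, and 0 to 5 with a library left out (5 without SCR DMSO replicate 2). Calls over all genes, in either direction, went from 1755 to 1838, 2997, 1780 and 4094 in the first 4 of these, and to 3156 without SCR DMSO replicate 2. In siB cells, 4 that rose became 2 and 20 that fell became 11 with all 4 groups in the fit, and 1 and 5 with the 2-fold limit. There the numbers were not treated as pairing the libraries, and the replicate block gave 6 and 20. Between siB and SCR in AAI, 2 higher became 5 and 0 lower became 1 with the replicate block, 0 were higher with the 2-fold limit, and with a library left out 0 to 3 were higher and 0 to 1 lower. Over all genes, calls in that comparison went from 1387 to 4325 with the block. In DMSO every alternative gave 0. For the interaction 0 lower became 0 to 3 with a library left out, and the block gave 0. The cause was not tested. Median-ratio scaling shifted the median of all genes by -0.16 in SCR cells. Depth limits genes near 1 CPM, such as CA9.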
